A study of Mus musculus with 4 samples.

Results

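The 34 genes described here are the rows of the expression table whose symbol is Hox, a cluster letter from a to d and a number, out of 18781 genes in all. They comprise 10 genes of cluster A, 9 of cluster B, 8 of cluster C and 7 of cluster D, and no measured value was used to choose them. RNA was sequenced from purified mature adipocytes of C57BL/6 mice, an inbred laboratory strain, at postnatal day 30. The dermal group (titled dWAT) came from the fat layer of the skin and the inguinal group (titled sWAT) from the fat of the groin, with 2 libraries in each. Adipocytes were freed by enzyme digestion and collected by flotation in a centrifuge. No allele or treatment is given in the labels for either group. The labels do not say whether replicates came from separate or pooled animals, so p-values measure the spread between these libraries alone, which may be technical.

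Hox genes encode homeodomain transcription factors that give cells their position along the head-to-tail axis of the embryo. They lie in 4 clusters, and genes at the same place in different clusters form a numbered paralogue group. Low numbers are transcribed furthest toward the head and high numbers furthest toward the tail and in the distal limb, and adult fibroblasts and fat depots are known to keep part of the pattern of their site of origin. In the GRCm38 (mm10) assembly, the GENCODE release M21 annotation places cluster A on chromosome 6 from 52155590 to 52260880 on the minus strand. Clusters B, C and D lie on the plus strand, on chromosome 11 from 96194316 to 96368256, chromosome 15 from 102921103 to 103036852 and chromosome 2 from 74668310 to 74765142. The annotation holds 39 Hox genes. Hoxa13, Hoxb13, Hoxc12, Hoxd12 and Hoxd13 are not analysed here.

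Cluster D genes of groups 3 to 8 and Hoxc6 were higher in dermal libraries, and 3 genes of the low-numbered part of cluster A were higher in inguinal libraries. Hoxd3 was the largest dermal difference, at 6.46 ± 0.123 against 0.726 ± 0.0707 normalized CPM (read counts scaled to a common library size, mean ± SD, n = 2 per depot). Hoxa4 and Hoxa5 were the largest inguinal differences, Hoxa5 at 1.30 ± 0.0380 in dermal and 5.30 ± 1.28 CPM in inguinal libraries. The most abundant genes of group 9 and above, Hoxa9, Hoxc9 and Hoxc10, did not pass the test. Of the 34 genes, 24 reached 1 CPM in at least 2 of the 4 libraries and were tested. Of these, 4 were higher in dermal libraries (Hoxd3, Hoxd4, Hoxd8 and Hoxc6), 3 were higher in inguinal libraries (Hoxa2, Hoxa4 and Hoxa5) and 17 did not pass (limma on log2(CPM + 0.5), two-sided, adjusted over all 12797 tested genes, threshold 0.05). Over all tested genes 16.4% passed, 7.56% as higher in dermal and 8.8% as higher in inguinal libraries. Of the 24 tested genes, Hoxd3 reached the filter through its dermal libraries alone, and 4 genes, Hoxa2, Hoxa3 and Hoxb8 among them, through their inguinal libraries alone. For such genes a difference is partly built into the filter. Without dermal replicate 1 the calls of Hoxc6, Hoxd8, Hoxa2 and Hoxa4 were lost, and Hoxa9 was called higher in dermal libraries. Without dermal replicate 2 the calls of Hoxc6, Hoxd8 and Hoxa2 were lost.

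The sequences before the starts of 5 of the 7 genes that passed are shown first, so that the letters near each start can be set beside its values. The sequences are the 250 bases before the RefSeq transcription start (GRCm38.p6), read 5′ to 3′ on the gene's strand. Hoxd3 is shown from chr2:74711743-74711926, 184 bases on the plus strand, up to the first base that GENCODE annotates as untranslated region. Hoxd4 covers chr2:74721728-74721977 and Hoxd8 chr2:74704365-74704614, both on the plus strand. GENCODE starts Hoxd4 at 74711929, so the sequence shown for Hoxd3 also lies before that start. The window shown for Hoxd4 lies within the GENCODE Hoxd4 gene. On the minus strand, Hoxa2 covers chr6:52164832-52165081 and Hoxa5 chr6:52204588-52204837. Capitals mark TAAT, the core that homeodomains bind, and TGATNNAT, a composite site of PBX and HOX proteins, on either strand.
Hoxd3: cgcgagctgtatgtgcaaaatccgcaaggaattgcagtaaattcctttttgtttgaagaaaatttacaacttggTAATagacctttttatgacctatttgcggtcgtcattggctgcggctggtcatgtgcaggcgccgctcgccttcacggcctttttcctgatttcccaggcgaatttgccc
Hoxd4: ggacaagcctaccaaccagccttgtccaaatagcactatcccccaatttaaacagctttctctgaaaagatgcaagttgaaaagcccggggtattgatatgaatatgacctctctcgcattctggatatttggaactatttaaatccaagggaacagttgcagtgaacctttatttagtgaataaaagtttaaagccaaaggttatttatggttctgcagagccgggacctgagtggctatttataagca
Hoxd8: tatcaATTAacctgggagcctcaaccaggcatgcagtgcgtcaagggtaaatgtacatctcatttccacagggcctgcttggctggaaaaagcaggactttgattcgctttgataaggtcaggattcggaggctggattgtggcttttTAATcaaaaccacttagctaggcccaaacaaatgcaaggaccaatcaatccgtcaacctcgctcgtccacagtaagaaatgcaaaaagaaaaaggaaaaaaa
Hoxa2: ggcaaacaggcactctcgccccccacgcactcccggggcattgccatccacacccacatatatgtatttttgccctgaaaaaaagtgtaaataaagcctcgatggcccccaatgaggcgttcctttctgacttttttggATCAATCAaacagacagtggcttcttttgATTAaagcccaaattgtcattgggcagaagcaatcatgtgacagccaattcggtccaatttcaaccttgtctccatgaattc
Hoxa5: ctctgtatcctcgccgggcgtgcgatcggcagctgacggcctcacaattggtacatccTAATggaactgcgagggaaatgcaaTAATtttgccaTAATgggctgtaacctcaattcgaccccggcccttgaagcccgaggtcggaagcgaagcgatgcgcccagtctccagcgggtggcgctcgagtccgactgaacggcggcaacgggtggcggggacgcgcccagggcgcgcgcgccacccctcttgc

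RefSeq windows of 250 bases were found for 19 of the 34 genes, 21 windows in all, and no window was found for Hoxa4 and Hoxc6. TAAT stood in 17 of the 21 Hox windows (81.0%) and in 54.9% of 32851 mouse windows of the same length. TGATNNAT stood in 4 Hox windows (19.0%) against 7.68% of all, and among the sequences shown it stood in the Hoxa2 window alone. The 2 motifs were counted separately and can overlap. The Hox windows held a median of 12 CG dinucleotides against 6 over all windows. Among the sequences shown, Hoxa5 had 28 CG dinucleotides and Hoxd4 had 3, so the genes that passed did not share a level of CG content. These matches describe letters in a window and were not tested against the expression values.

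In cluster D, 3 of the 4 tested genes passed, all as higher in dermal fat. On chromosome 2 the annotation places Hoxd3 (ENSMUSG00000079277.9) from 74711927 to 74748442, Hoxd4 (ENSMUSG00000101174.8) from 74711929 to 74729160 and Hoxd8 (ENSMUSG00000027102.4) from 74704615 to 74707933. Hoxd3, which patterns the first neck vertebrae, measured 6.37 and 6.55 CPM in dermal fat against 0.676 and 0.776 CPM in inguinal fat. Both dermal values lay far above both inguinal values, and the pairs within a depot were close. The log2 fold change, dermal over inguinal, was 2.51 (SE 0.26, limma adjusted p = 0.00301), from 139 dermal and 16 inguinal reads. Hoxd4, its neighbour toward the high-numbered end and a gene of the hindbrain and neck vertebrae, measured 20.8 and 14.6 CPM in dermal fat against 6.16 and 5.53 CPM in inguinal fat (log2 fold change 1.503, SE 0.23, adjusted p = 0.00937). The dermal libraries differed more from each other for Hoxd4 than for Hoxd3, but both stood above the inguinal ones. Hoxd8, a gene of the trunk, measured 28.3 and 29.6 CPM in dermal fat against 17.4 and 19.7 CPM in inguinal fat (log2 fold change 0.63, SE 0.15, adjusted p = 0.0389). Its values did not overlap between depots and its difference was smaller. Hoxd9, which with its neighbours patterns limb and lower spine, measured 1.55 and 2.66 CPM against 1.27 and 1.65 CPM and did not pass (adjusted p = 0.476). The calls of Hoxd3 and Hoxd4 held under all 15 alternative settings. In the 4 of these that leave a library out, the lone library of a depot is assumed to vary like the other depot. That of Hoxd8 was lost under 7 of them, including without either dermal library (adjusted p = 0.183 without dermal replicate 1, 0.232 without dermal replicate 2) and without inguinal replicate 1 (0.0676).

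**Figure D1:**
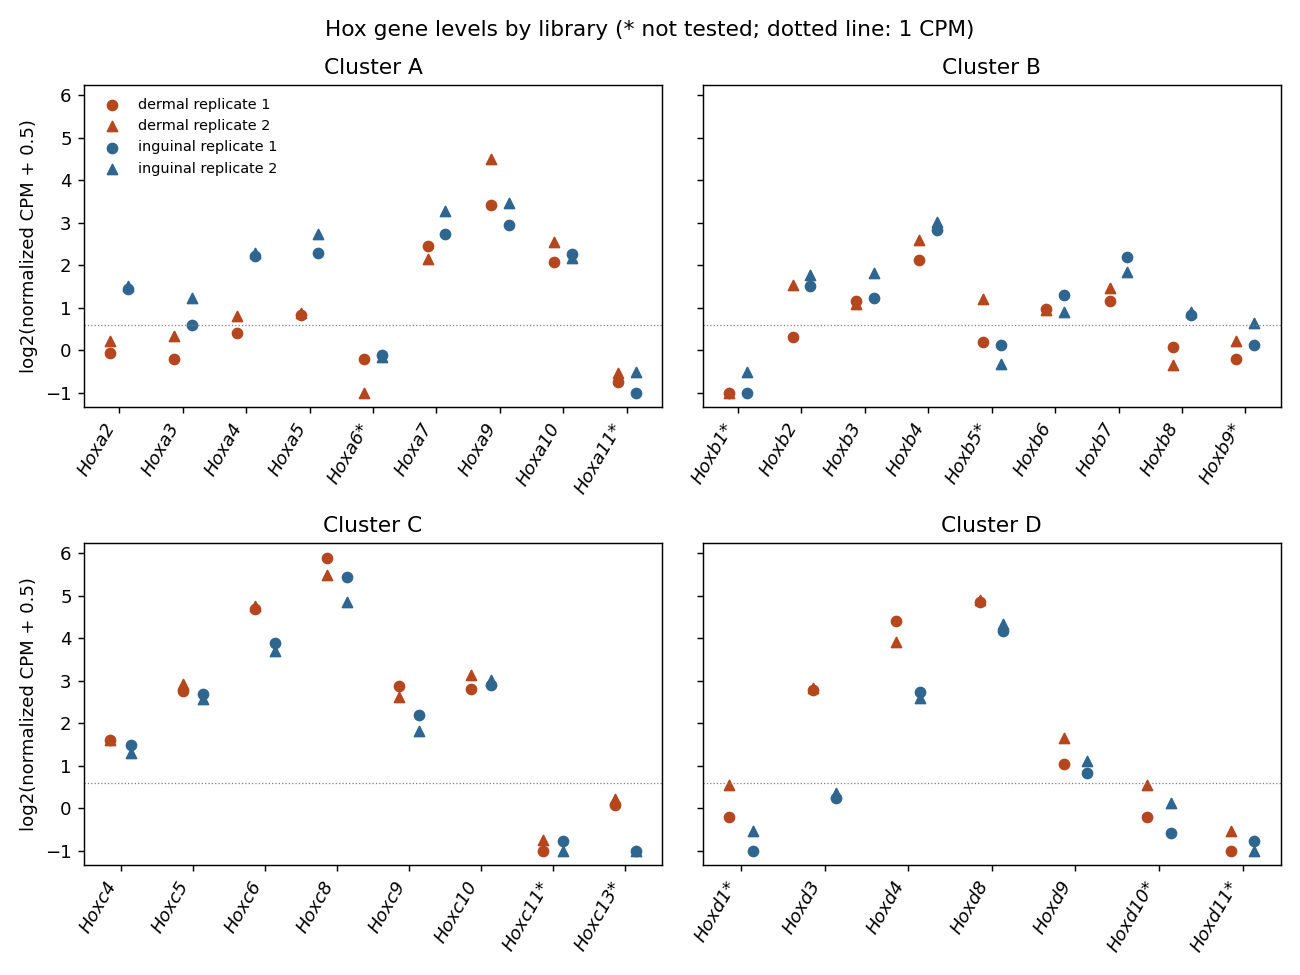
Levels of 33 Hox genes in each library as log2(normalized CPM + 0.5), 1 panel per cluster, with genes in order of paralogue group. Circles and triangles are replicates 1 and 2, the dotted line marks 1 CPM, and asterisks mark the 10 genes that were not tested. Dermal points lie above inguinal points for Hoxd3, Hoxd4, Hoxd8 and Hoxc6, and below them for Hoxa2, Hoxa4 and Hoxa5.

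Ratios between genes of 1 library do not depend on scaling between libraries. The ratio of Hoxd3 to Hoxd8 CPM was 0.225 and 0.221 in dermal libraries and 0.0388 and 0.0394 in inguinal libraries. The ratio of Hoxd4 to Hoxd8 was 0.736 and 0.494 against 0.354 and 0.281. The ratio of Hoxd9 to Hoxd8 was 0.0547 and 0.0897 against 0.0728 and 0.0837, so these values overlapped between depots. Within cluster D the log2 fold change fell with each step in paralogue group among the 4 tested genes. It went from 2.51 for Hoxd3 through 1.503 and 0.63 to 0.38 for Hoxd9 (Spearman's rho -1.0, a description over 4 genes of the same libraries). The untested Hoxd1 and Hoxd10 did not extend this order. Fitted without the filter, from few reads, they had 0.93 and 0.395. With 2 libraries against 2, an exact two-sided permutation test of the ratios above cannot give less than 0.333, so none was run. In the GENCODE annotation Hoxd3 and Hoxd4 overlap each other on the plus strand and both overlap the antisense gene Hoxd3os1, so their reads may have been split or shared. Hoxd3os1 itself measured 0.546 and 1.23 CPM in dermal fat against 0.676 and 0.582 CPM in inguinal fat, a level under the filter whose values overlapped.

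In cluster A, 3 genes passed, each as higher in inguinal fat. On chromosome 6 lie Hoxa2 (ENSMUSG00000014704.10) from 52162417 to 52164831, Hoxa4 (ENSMUSG00000000942.10) from 52189671 to 52191753 and Hoxa5 (ENSMUSG00000038253.6) from 52201754 to 52204587. Hoxa5, which patterns the lung and the thoracic skeleton, measured 1.27 and 1.33 CPM in dermal fat against 4.39 and 6.20 CPM in inguinal fat (log2 fold change -1.67, SE 0.28, adjusted p = 0.0129). Hoxa4, a gene of the neck vertebrae, measured 0.819 and 1.23 CPM against 4.14 and 4.36 CPM (log2 fold change -1.65, SE 0.28, adjusted p = 0.0141). Hoxa2, which patterns the second branchial arch, measured 0.455 and 0.664 CPM against 2.20 and 2.33 CPM (log2 fold change -1.39, SE 0.31, adjusted p = 0.0286). For these 3 genes the inguinal values lay above the dermal values without overlap, from 28, 22 and 12 dermal reads and 116, 94 and 50 inguinal reads in the order given. The Hoxa5 call held under each of the 14 alternatives that tested it. Hoxa4 missed the threshold with dermal replicate 1 left out (adjusted p = 0.0548), and Hoxa2 with DESeq2 (0.0845) and whichever library was left out (0.0507 to 0.129).

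Hoxa3 and Hoxa7 had negative estimates and did not pass. Hoxa3, needed for the thymus and parathyroid, measured 0.364 and 0.759 against 1.013 and 1.84 CPM (-0.85, adjusted p = 0.185). Hoxa7 measured 5.01 and 3.89 against 6.16 and 9.11 CPM (-0.70, adjusted p = 0.128). In these genes, too, both dermal values lay under both inguinal values. Hoxa7 passed as higher in inguinal fat under scaling to adipocyte markers (adjusted p = 0.0433) and without inguinal replicate 1 (0.0474). At the high-numbered end, Hoxa9, a gene of blood stem cells and limb, measured 10.2 and 22.0 CPM in dermal fat against 7.26 and 10.5 CPM in inguinal fat (log2 fold change 0.75, SE 0.37, adjusted p = 0.218), and the depots overlapped. Hoxa9 passed as higher in dermal libraries without dermal replicate 1 (adjusted p = 0.0453), and its log2 fold change ran from 0.21 without dermal replicate 2 to 1.29 without dermal replicate 1. In dermal replicate 2, fibroblast and progenitor markers summed to 14729 CPM, against 7019 CPM in dermal replicate 1. Col3a1 alone gave 8179 and 3871 CPM of these sums. Pdgfra (43.0 against 21.1 CPM) and Dcn (534 against 257 CPM) also stood higher in dermal replicate 2. Ebf1 (315 against 327 CPM) and Pi16 (4.17 against 5.64 CPM) did not. The part of these markers in the Hoxa9 value was not tested. Hoxa10, known for its role in the uterus, measured 3.73 and 5.31 against 4.31 and 3.97 CPM (adjusted p = 0.83). The ratio of Hoxa9 to Hoxa5 was 8.0 and 16.6 in dermal libraries and 1.65 and 1.69 in inguinal libraries. The GENCODE gene Hoxa3 spans Hoxa4, Hoxa5 and Hoxa6, and the antisense gene Hoxaas3 overlaps Hoxa3 to Hoxa7, so reads of these genes may not be separable.

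All 6 tested genes of cluster B had negative estimates and 0 passed. Of these 6, 2 had an unadjusted limma p under 0.05, and the number passing with edgeR and with DESeq2 on recovered reads was also 0. Hoxb4, known for expanding blood stem cells, was the most abundant gene of the cluster in CPM, at 3.82 and 5.50 CPM in dermal fat against 6.59 and 7.56 CPM in inguinal fat (log2 fold change -0.57, adjusted p = 0.172). Hoxb7 measured 1.73 and 2.28 against 4.05 and 3.10 CPM (-0.70, adjusted p = 0.140), and Hoxb8 0.546 and 0.285 against 1.27 and 1.36 CPM (-0.9995, adjusted p = 0.0988). Hoxb8 passed without the intensity trend (adjusted p = 0.0348). Hoxb2, a hindbrain gene, measured 0.728 and 2.37 against 2.36 and 2.91 CPM, so 1 dermal library was low and the other near the inguinal level. Hoxb3 measured 1.73 and 1.61 against 1.86 and 3.01 CPM, and Hoxb6 1.46 and 1.42 against 1.94 and 1.36 CPM. Hoxb3, Hoxb4, Hoxb7 and Hoxb8 did not overlap between depots, and Hoxb2 and Hoxb6 did. The estimate of Hoxb6 was -0.13 and turned to 0.06 without inguinal replicate 1. Among the untested genes of the cluster, Hoxb5 had more dermal than inguinal reads (26 against 10), and Hoxb1 and Hoxb9 had fewer.

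Cluster C held the most abundant Hox transcript, Hoxc8. Hoxc6 (ENSMUSG00000001661.5) lies on chromosome 15 from 102998257 to 103011881. Hoxc8, a gene of the thoracic spine that is also known to restrain brown fat differentiation, measured 59.2 and 44.5 CPM in dermal fat against 42.7 and 28.4 CPM in inguinal fat (log2 fold change 0.55, SE 0.24, adjusted p = 0.164). Its lower dermal value was close to its higher inguinal value, and it passed without inguinal replicate 1 (adjusted p = 0.0153). Hoxc6, a gene of the thoracic region, measured 25.4 and 26.8 against 14.3 and 12.4 CPM (log2 fold change 0.94, SE 0.16, adjusted p = 0.0144) and was the 1 gene of the cluster that passed. With dermal replicate 1 left out it missed the threshold (adjusted p = 0.0680), and likewise with dermal replicate 2 left out (0.0860). Hoxc9 measured 6.83 and 5.60 against 4.05 and 3.01 CPM (0.74, adjusted p = 0.0972) without overlap. Hoxc4 measured 2.55 and 2.56 against 2.28 and 1.94 CPM, and Hoxc5 6.28 and 7.12 against 5.91 and 5.43 CPM, with adjusted p of 0.591 and 0.516. Hoxc10, a gene of the hindlimb level that marks subcutaneous fat, measured 6.46 and 8.35 against 6.92 and 7.56 CPM (0.02, SE 0.22, adjusted p = 0.960), and the depots overlapped. The ratio of Hoxc6 to Hoxc10 was 3.93 and 3.20 in dermal and 2.06 and 1.64 in inguinal libraries. The annotated Hoxc5 gene spans Hoxc6, Hoxc8, Hoxc9 and part of Hoxc10 on the same strand.

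**Figure D2:**
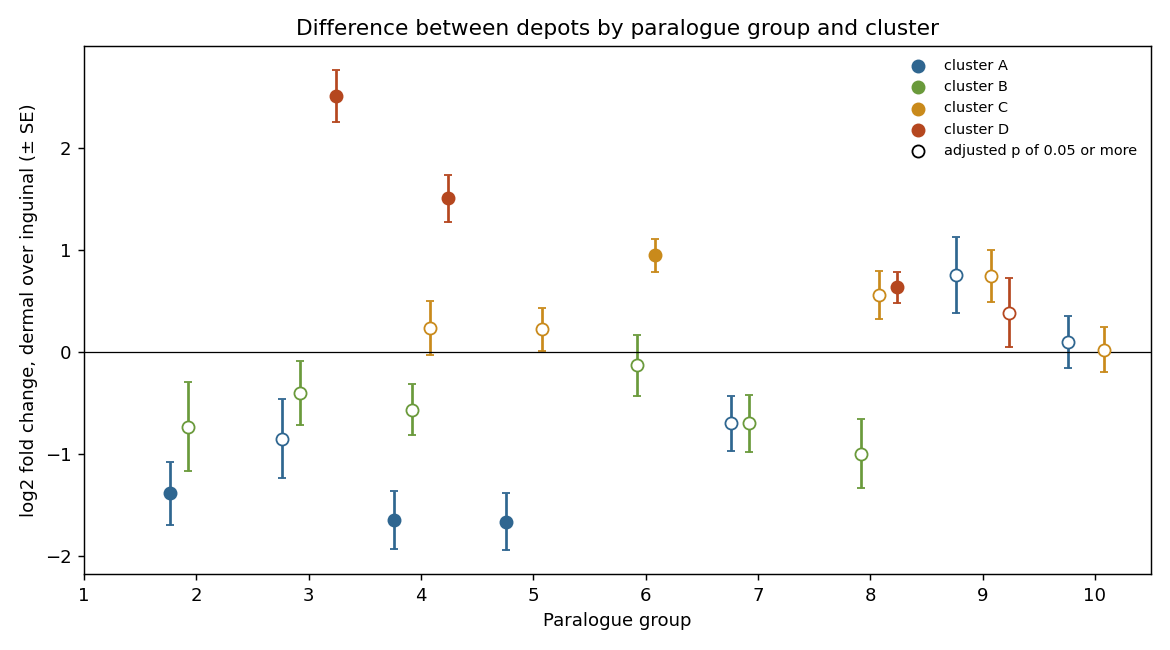
Log2 fold change (dermal over inguinal, ± SE from limma) of 23 tested Hox genes against paralogue group, coloured by cluster and shifted sideways for legibility. Filled points passed at an adjusted p under 0.05. Cluster D points lie above 0 in groups 3 and 4, and cluster A points lie below it in groups 3 to 5. Groups 9 and 10 hold no filled point.

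In group 4, 1 gene passed in each direction: Hoxd4 was higher in dermal and Hoxa4 in inguinal libraries. Their ratio of CPM was 25.4 and 11.8 in dermal and 1.49 and 1.27 in inguinal libraries. By cluster, all 10 tested genes of clusters C and D had positive estimates, except that Hoxc10 turned negative under quantile normalization and Hoxc5 and Hoxc10 under scaling to adipocyte markers. The 12 tested genes of clusters A and B with numbers up to 8 had negative estimates under each scaling. Among the untested genes in this range, Hoxb5 went the other way, with 26 dermal and 10 inguinal reads. Hoxa6 (4 and 9 reads) and Hoxb1 (0 and 2 reads) did not. The 2 tested genes with higher numbers, Hoxa9 and Hoxa10, had positive estimates (Hoxa10 turned negative under scaling to adipocyte markers). Of the 24 genes, 12 estimates were positive and 12 negative, with a median of -0.06 against 0.02 over all tested genes. Values did not overlap between depots for 8 genes in the dermal and 10 in the inguinal direction, where 61.8% of all tested genes did not overlap. This division by cluster and number was noted after the values were seen and carries no test. Across tested genes of a cluster, Spearman's rho between paralogue number and log2 fold change was 0.41 in cluster A (8 genes), -0.26 in B (6) and -0.09 in C (6), as descriptions over genes that share libraries and in part reads.

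Summed over its rows, cluster D measured 57.8 and 55.5 CPM in dermal fat against 25.8 and 28.4 CPM in inguinal fat, a ratio of means of 2.09. Cluster C measured 107 and 95.6 against 76.3 and 58.7 CPM (a ratio of 1.503). Cluster B was lower in dermal libraries, at 11.01 and 15.9 against 19.3 and 20.8 CPM (a ratio of 0.672), and cluster A overlapped, at 22.8 and 36.05 against 31.2 and 40.0 CPM. With libraries scaled to the adipocyte markers instead, the cluster C sums overlapped (99.3 and 86.7 against 86.9 and 61.4) and the cluster A sums no longer did (21.2 and 32.7 against 35.6 and 41.8). The genes of groups 9 to 13 gave 61.4% and 76.3% of the cluster A sum in dermal and 37.0% and 36.6% in inguinal libraries. That share rested mostly on Hoxa9, and counted from group 10 upward the means were 16.0% in dermal and 12.1% in inguinal libraries. In clusters B, C and D the share of groups 9 to 13 overlapped between depots, ranging from 3.07% to 5.12%, from 12.9% to 18.0% and from 3.31% to 7.85%. Over all 4 clusters it was 15.1% and 23.0% in dermal and 16.2% and 19.3% in inguinal libraries, so the depots did not separate by the share of high-numbered genes.

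**Figure D3:**
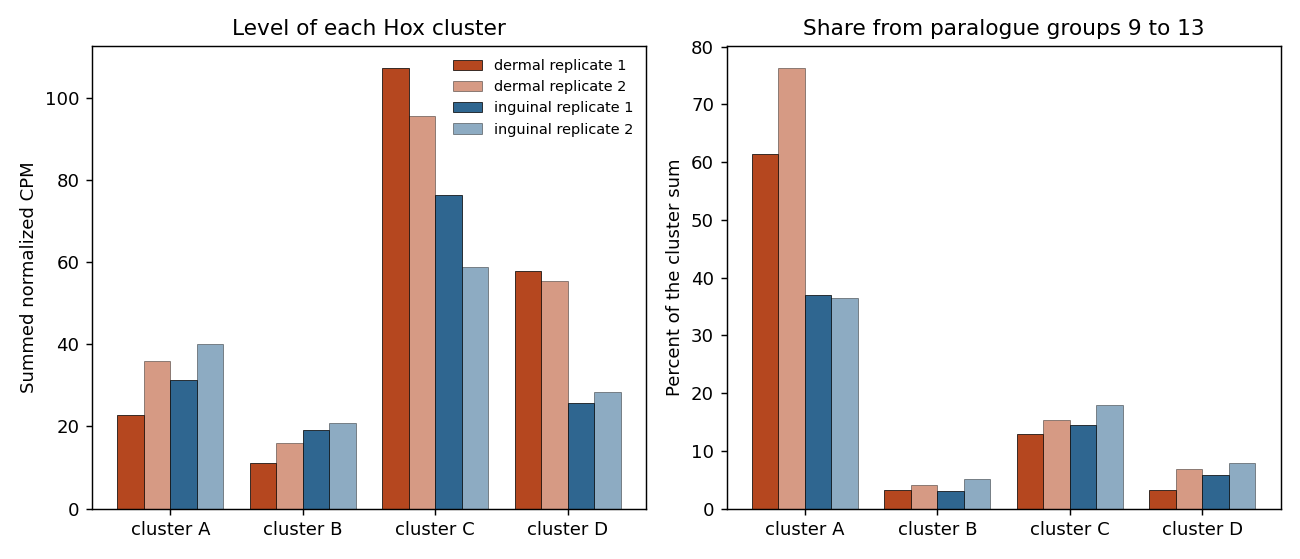
Left, summed normalized CPM of each Hox cluster in each library. Right, percent of each cluster's sum that came from paralogue groups 9 to 13. Each bar is 1 library. Cluster D bars are higher in both dermal libraries (57.8 and 55.5 CPM) than in both inguinal ones (25.8 and 28.4 CPM), and the cluster A share is higher in dermal libraries.

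Levels of different genes were compared per kilobase of exon in the GENCODE annotation. Hoxc8 ranked first in both depots, at a mean of 18.3 CPM per kb in dermal and 12.6 CPM per kb in inguinal libraries. Hoxc6 (10.8) and Hoxd8 (10.6) followed in dermal libraries, where their means were close, and Hoxd8 (6.76) and Hoxc6 (5.54) in inguinal libraries. Hoxd4 ranked 4 in dermal libraries (6.01 CPM per kb) and 10 in inguinal libraries (1.98). Hoxc10 ranked 5 and 4, at 3.88 and 3.79 CPM per kb. Hoxa5 ranked 17 in dermal libraries (0.693 CPM per kb) and 5 in inguinal libraries (2.82), and Hoxa4 18 (0.644) and 7 (2.67). Hoxd3 ranked 11 in dermal (1.54 CPM per kb) and 27 in inguinal libraries (0.173).

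The 10 genes under the filter had between 2 and 36 reads over the 4 libraries. Hoxc13, which controls hair keratin genes in the follicle, had 13 reads in the dermal libraries and 0 in the inguinal libraries. Set against a floor of 3 reads over the inguinal group, the dermal level of Hoxc13 was 4.46-fold higher. That value leaves out counting error in the dermal reads and is not a lower bound. The 95% counting interval of the ratio of levels started at 3.14. In the alternative fit without the filter, Hoxc13 passed as higher in dermal libraries (log2 fold change 1.14, limma adjusted p = 0.0199). Both inguinal values were 0, so that depot showed no spread. Hair follicle and keratinocyte markers were also higher in dermal libraries, at a summed 149 and 64.4 CPM against 24.99 and 17.6 CPM. Trp63 gave 21.2 and 14.2 CPM of the inguinal sums, and Krt17 and Krt27 were at 0 in both inguinal libraries. The marker sum was lower in dermal replicate 2 than in dermal replicate 1, where Hoxc13 had 7 and 6 reads. The part of these markers in the Hoxc13 reads was not tested. Hoxd1, a gene of pain-sensing neurons, had 14 dermal and 2 inguinal reads (ratio of levels 7.21, 95% counting interval 1.65 to 65.3), and Hoxb5 had 26 and 10 (2.68, 1.25 to 6.22). Hoxd10, a gene of the hindlimb, had 14 and 8 reads (1.80, 0.705 to 4.96), Hoxb9 11 and 18 (0.629, 0.268 to 1.41) and Hoxa6 4 and 9 (0.457, 0.103 to 1.64). These intervals cover counting error only, and those of the last 3 genes include equal levels. Hoxa11 had 5 reads over the 4 libraries, Hoxd11 3, and Hoxb1 and Hoxc11 2 each, too few for a comparison.

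HOX proteins bind DNA with partners of the TALE family, the PBX, MEIS and PKNOX proteins. Of 9 such genes 7 were tested, 2 were higher in dermal libraries (7.56% of all tested genes were) and 5 did not pass, with a median log2 fold change of 0.26 against 0.02 over all tested genes. Meis3 measured 7.83 and 8.92 CPM in dermal fat against 1.69 and 2.71 CPM in inguinal fat (log2 fold change 1.74, SE 0.27, adjusted p = 0.0103). Meis1 measured 24.7 and 27.0 against 11.9 and 14.5 CPM (0.95, SE 0.18, adjusted p = 0.0173). Both genes were higher in each dermal library than in each inguinal one. Pbx2, which partners HOX proteins on DNA, measured 36.4 and 35.6 against 28.8 and 31.2 CPM, with an estimate of 0.26, and did not pass (adjusted p = 0.248).

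Of 10 tested genes listed as neighbours of the clusters, 2 were higher in inguinal libraries (8.8% of all tested genes were), 0 in dermal, and 8 did not pass. Both lie beyond the low-numbered end of cluster A. Skap2, an adaptor protein gene 143 kb from the cluster, measured 25.7 and 27.1 CPM against 39.5 and 44.6 CPM (log2 fold change -0.66, SE 0.14, adjusted p = 0.0277). Snx10, a sorting nexin gene 565 kb away, measured 70.7 and 53.5 against 148 and 112 CPM (-1.06, SE 0.20, adjusted p = 0.0178). On the other side of cluster A, Hibadh had an estimate of -0.13, and Mtx2 and Lnp beside cluster D had -0.02 and -0.01. Smug1 and Cbx5 beside cluster C had 0.41 and -0.04, and Snf8 beside cluster B had -0.18. Atp5g3 and Hnrnpa1, the other tested genes of the list, had 0.57 (limma adjusted p = 0.0727) and -0.37 (0.103). Of the noncoding genes listed for the clusters 4 had rows, and Mira, which lies within the annotated Hoxa7 gene, was the 1 that was tested (3.46 and 2.18 against 5.66 and 3.78 CPM, adjusted p = 0.205). The rows of the microRNA genes Mir10a and Mir10b held 1 read each. The 7 genes listed as Cdx and ParaHox genes are not analysed here.

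The 4 libraries held between 10127125 and 12730013 reads assigned to genes, of which 1527 to 2185 fell on Hox rows. Adipocyte markers were abundant in all libraries, at a summed 48819 to 55487 CPM over 15 genes, of which 2 were higher in dermal libraries. In these bulk samples, fewer cells of a type and less RNA per cell cannot be told apart. Markers of other cells differed between the depots. Endothelial markers summed to 503 and 557 CPM in dermal fat against 1786 and 2751 CPM in inguinal fat (15 of 15 higher in inguinal). Macrophage markers summed to 1867 and 1772 against 687 and 657 CPM (12 of 14 tested higher in dermal), and keratinocyte and follicle markers passed as higher in dermal libraries in 8 of 9. Pericyte and smooth muscle markers were higher in inguinal libraries in 8 of 9 and in dermal in 1, and red blood cell genes in inguinal in 7 of 8 rows, among which 3 pairs of globin rows hold identical values. Fibroblast and progenitor markers summed to 7019 and 14729 against 4452 and 7313 CPM (2 of 14 higher in dermal). Of the tested markers, 1 of 6 for Schwann cells was higher in inguinal libraries, 1 of 8 for skeletal muscle in each depot, and 2 of 2 for mammary epithelium and 1 of 1 for lymphocytes in dermal libraries. Of those for dermal papilla and mesothelium, 0 of 2 and 0 of 1 passed. None of the listed markers with a row was at 0 in all 4 libraries. The part of these cells in the Hox values was not tested.

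**Figure D4:**
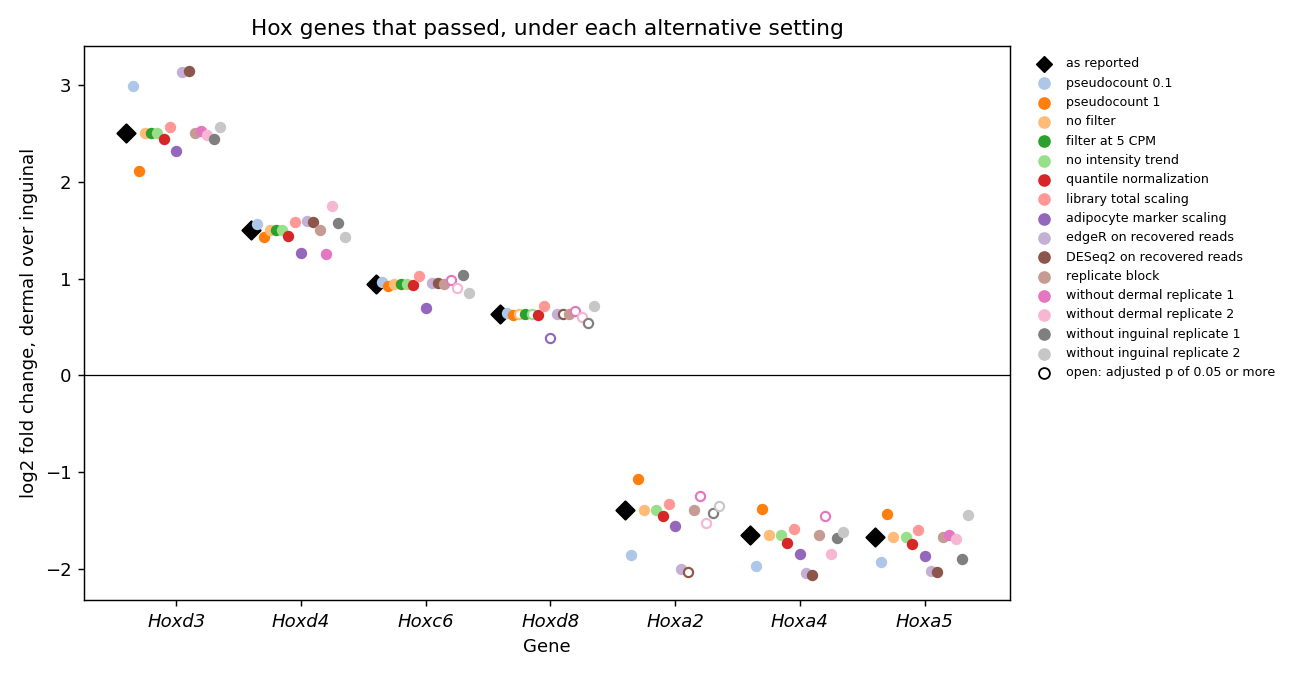
Log2 fold change of the 7 Hox genes that passed, as reported (diamonds) and under each alternative setting (circles). Open symbols have an adjusted p of 0.05 or more. Every estimate keeps its sign, with Hoxd3 between 2.11 and 3.14, and open symbols stand for Hoxc6, Hoxd8, Hoxa2 and Hoxa4.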

How the data were processed

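The deposited table gives 1 value per gene and library. The authors deposited these signal values as normalized CPM, and the columns sum to between 960745 and 1074951, so more than the library total entered their scaling. Per the submitters' processing notes, TopHat2 2.0.12, Picard 1.127, featureCounts (Subread 1.4.6) and edgeR were used with the mm10 genome, and per the labels' protocols libraries were made with a stranded total RNA kit. The strand setting and annotation release of the counting are not given in the sources used here. The submitters' name for the counts mentions iGenomes known genes, so the GENCODE overlaps given here may differ from the genes counted. In GENCODE, 14 of the 34 Hox genes have an antisense neighbour. In every column 100% of values were whole multiples of the value of 1 read, within 0.001, so reads could be recovered, and 1 read was worth 0.0844 to 0.0969 CPM.

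Groups came from the sample titles. A gene was tested if 2 or more libraries had 1 CPM or more. The test was limma 3.58.1 (R 4.3.3), with a trend in intensity, on log2(CPM + 0.5), a scale that understates changes of low genes. Adjustment was by the Benjamini-Hochberg method. Alternatives were other pseudocounts, filters and scalings, edgeR 4.0.16 and DESeq2 1.42.0 on recovered reads, a replicate block and leaving out each library. The fits were checked on simulated counts. Summed levels and ratios carry no test. GENCODE M21 (GRCm38) gave exon lengths and Hox positions, and RefSeq (GRCm38.p6) gave neighbours' positions and promoters. Hox genes were named by rule (1 of them, and 1 cofactor gene, is counted but not reported here), and of other lists up to 4 genes that passed and the 2 most abundant. Mira, Mir10a, Mir10b, Hoxd3os1 and all tested neighbours of the clusters were named for their place. The members and lists were chosen with earlier results of these data known.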

Additional observations from a re-analysis of the deposited data

How the results depend on the processing

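With 15 alternative settings, Hoxd3 and Hoxd4 passed under all 15, Hoxa5 under the 14 that tested it, Hoxa4 under 13 of 14, Hoxc6 under 13 of 15, Hoxa2 under 9 of 14 and Hoxd8 under 8 of 15, each with the direction reported. The log2 fold change of Hoxd3 was 3.13 with edgeR, 3.14 with DESeq2 and 2.11 with a pseudocount of 1. Over all genes, 2094 passed, 968 in the dermal and 1126 in the inguinal direction. Scaling to the adipocyte markers shifted the median of all tested genes to -0.22 and gave 591 and 2217, and moved the share of calls that were higher in dermal libraries from 46.2% to 21.05%. With 1 library left out, the calls numbered 1023 to 2636, 339 to 1212 in the dermal and 568 to 1470 in the inguinal direction. For Hox genes the same range was 2 to 4 in the dermal and 1 to 3 in the inguinal direction. A filter at 5 CPM left 11 Hox genes, none of them Hoxa2, Hoxa4 or Hoxa5, and 0 passed as higher in inguinal libraries. Without the filter, Hoxc13 was added in the dermal direction and Hoxd8 was lost.

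The labels give the libraries of both depots the same replicate numbers without saying whether a number marks a shared animal or batch, and same-numbered libraries deviated together (correlation 0.46 over 12797 genes). With the replicate number as a block (the replicate block), 4726 genes passed (2342 and 2384), among them 7 Hox genes in the dermal and 6 in the inguinal direction. The 6 that it added were Hoxa9, Hoxc8 and Hoxc9 in the dermal and Hoxa7, Hoxb4 and Hoxb8 in the inguinal direction.

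The estimate of Hoxc10, 0.02 as reported, was -0.057 under quantile normalization and -0.21 under adipocyte scaling, and ran from -0.15 without dermal replicate 2 to 0.19 without dermal replicate 1 (-0.04 without inguinal replicate 1). That of Hoxa10 was -0.13 under adipocyte scaling and ran from -0.13 without dermal replicate 2 to 0.33 without dermal replicate 1. That of Hoxc5 was -0.012 under adipocyte scaling. That of Hoxb6 ran from -0.33 without inguinal replicate 2 to 0.063 without inguinal replicate 1. None of these 4 genes passed in any setting. Counted from group 10 upward, the share of the sum was 16.0% and 12.1% in cluster A (dermal and inguinal means), 0% and 0% in B, 8.03% and 11.03% in C, 1.34% and 1.52% in D and 6.69% and 7.95% over all. Per kilobase, the share of groups 9 to 13 was 52.2% and 21.4% in cluster A, 17.3% and 20.5% in C, and 9.03% in inguinal libraries for D. These shifts follow from which genes and lengths are counted. Depth limits the low genes, since 1 read corresponded to 0.0844 to 0.0969 CPM. Sums with other scalings were added after seeing the data.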

Other observations

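Polycomb complexes silence Hox clusters and trithorax complexes keep them active. Of 29 tested Polycomb genes, 1 was higher in dermal libraries, 2 were higher in inguinal libraries and 26 did not pass (16.4% of all tested genes passed), with a median log2 fold change of -0.04. Ezh1, a methyltransferase of the repressive complex, measured 62.8 and 73.6 CPM in dermal fat against 36.2 and 45.9 CPM in inguinal fat (log2 fold change 0.73, limma adjusted p = 0.0328). Mtf2, an accessory subunit of the same complex, measured 21.2 and 20.3 against 35.4 and 33.2 CPM (-0.71, adjusted p = 0.0226), and Rybp, of the ubiquitin ligase complex, 22.2 and 24.7 against 38.3 and 42.7 CPM (-0.77, adjusted p = 0.0195).

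Of 17 tested trithorax genes and demethylases of the Polycomb mark, 1 was higher in dermal libraries, 2 were higher in inguinal libraries and 14 did not pass (against the same 16.4%), with a median of 0.01. Kmt2b, a trithorax methyltransferase, had a log2 fold change of 0.68 (adjusted p = 0.0328). Kdm6b, a demethylase of the Polycomb mark, measured 23.1 and 28.7 CPM in dermal fat against 45.6 and 61.9 CPM in inguinal fat (-1.03, adjusted p = 0.0195), and Psip1, a chromatin reader, had -0.62 (adjusted p = 0.0456).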
